A study of Mus musculus and Rattus norvegicus with 26 samples.

Results

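The calcium/calmodulin-dependent protein kinases are described here through their intronic reads in the 6 deposited lists of cytoplasmic intron-sequence retaining transcripts (CIRTs), the authors' name for RNAs that keep intron stretches in the cytoplasm. The family was taken as 9 genes chosen by symbol, namely Camk2a, Camk2b, Camk2d, Camk2g, Camk1d, Camk1g, Camk4, Camkk1 and Camkk2, out of 13695 genes with a contig in any list. All 9 were in at least 1 mouse list and 5 in a rat list. A contig is a run of intronic reads that the authors joined when they lay no more than 500 nt apart, and a read count belongs to an intron of a RefSeq transcript, so each intron was counted once.

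Calmodulin binds calcium ions that enter an excited cell and then binds and switches on these kinases. CaMKII is a large holoenzyme built from alpha, beta, gamma and delta subunits (Camk2a, Camk2b, Camk2g and Camk2d). It is known for its part in synaptic strengthening in the hippocampus, where Camk2a mRNA is a textbook example of an mRNA carried into dendrites, while the delta form is the main one of heart muscle. CaMKI (Camk1d, Camk1g) and CaMKIV (Camk4) need a further phosphorylation by the CaMK kinases Camkk1 and Camkk2, and CaMKIV acts mainly in the nucleus.

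The study amplified and sequenced RNA of hippocampal neurons grown in culture from embryonic day 18 C57BL/6 mice and Sprague-Dawley rats, and compared dissected dendrites with somas. The rat age is as labelled, and the study's sequencing table carries a different code for the rat samples, which may or may not be an age. Mouse dendrites gave 3 libraries, mouse somas 3, rat dendrites 2 and rat somas 3. A dendrite library pooled many dissected dendrites, whereas a soma library came from 1 cell and still held its nucleus, and dissection does not part axons from dendrites. BAT cells and cardiomyocytes were also taken whole, with the nucleus. For these whole-cell groups the authors kept only contigs of at most 400 nt in their own work, to limit unspliced nuclear RNA, while the deposited lists used here also hold longer ones. The study added 2 non-neuronal mouse groups, with 6 libraries of cells from interscapular brown adipose tissue (BAT) of day 17.5 CD-1 embryos and 9 of ventricular cardiomyocytes from day 14.5 embryos of transgenic C57BL/6 mice hemizygous for the mAG-hGem cell cycle reporter, which the ubiquitous CMV promoter drives. Every group shared the same repeated antisense RNA (aRNA) amplification, and no group was treated with an agent.

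The deposited lists hold 1 value per condition over all its libraries, so no spread between libraries exists and no test between conditions could be made. For both non-neuronal groups the number of cells in the study's text is below the number of labelled libraries, and which ones entered the lists is not certain. Intervals below are 95% intervals that cover counting error only, and less RNA per cell cannot be told apart from fewer cells in these pools. The lists held between 1007530 reads (rat dendrite) and 17858440 reads (BAT), and levels are given as reads per 1000000 listed reads (RPM). A gene missing from a list may also have been removed by the authors' filters. Intronic reads of 5 of 6 neuron markers were listed for mouse dendrites (1281 RPM) and 5 of 6 for mouse somas (8104 RPM), with Map2 missing from all 6 lists. Rat dendrites held 3 of 6 (1352 RPM) and rat somas 4 of 6 (7558 RPM), so the summed neuron markers were lower in dendrites in both species, and their part in the kinase differences was not tested. The cardiomyocyte list held 6 of 6 cardiomyocyte markers (26322 RPM), 3 of 6 brown adipocyte markers (287 RPM), 2 of 6 neuron markers (17.6 RPM) and 0 of 6 glial ones. The BAT list held 5 of 6 brown adipocyte markers (3431 RPM) but also 4 of 6 neuron markers (1255 RPM) and 4 of 6 cardiomyocyte markers (1279 RPM). The mouse dendrite list likewise held 5 of 6 cardiomyocyte markers (519 RPM), 3 of 6 brown adipocyte markers (117 RPM) and 5 of 6 glial markers (52.8 RPM). Glial reads were higher in the other neuron lists, with 140 RPM in mouse somas (3 of 6), 68.5 RPM in rat dendrites (1 of 6) and 120 RPM in rat somas (2 of 6), and the part of these other cell types in the kinase reads was not tested.

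Only 2 stretches of the 9 genes lay in contigs of all 4 mouse lists, and both have close relatives elsewhere in the genome, so they are shown before the values. The first lies in intron 4 of Camk2d (NM_023813), on the plus strand at chr3:126439683-126439778 of NCBIM37 (mm9). Its first 90 bases had their best match elsewhere in an exon of Atp5g3, a gene for the membrane ring subunit of mitochondrial ATP synthase, at chr2:73746504-73746593 (minus strand), with 94.4% identity and 5 mismatches, which stand in capitals in both lines.
Camk2d intron 4: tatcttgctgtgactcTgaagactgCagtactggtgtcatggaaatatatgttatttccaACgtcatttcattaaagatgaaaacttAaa
Atp5g3 exon: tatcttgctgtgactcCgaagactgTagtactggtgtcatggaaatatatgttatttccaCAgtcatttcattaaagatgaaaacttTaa
The mouse dendrite and mouse soma contigs of 180 nt each ended with this stretch or 1 base past it. The dendrite contig matched Atp5g3 over 174 nt at 92.5% identity and the cardiomyocyte contig over 175 nt at 92.6%, and this was the sole near copy of each in the genome. A near copy is here a match of at least 100 nt at 90% identity or more.

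The second stretch lies in intron 3 of Camk1d (NM_177343), on the minus strand at chr2:5300277-5300421. It matched 35 other places in the genome in a search with no set limit on identity or length. The cardiomyocyte contig has these same coordinates and had 2 near copies by the definition above. A close match, shown here, was chr3:5860319-5860439, which is in no exon of a protein-coding gene. It had 93.4% identity over 121 bases and 8 mismatches, again in capitals.
Camk1d intron 3: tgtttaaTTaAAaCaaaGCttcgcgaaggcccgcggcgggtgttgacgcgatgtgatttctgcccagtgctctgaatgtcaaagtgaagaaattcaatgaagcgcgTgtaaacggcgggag
Match on chromosome 3: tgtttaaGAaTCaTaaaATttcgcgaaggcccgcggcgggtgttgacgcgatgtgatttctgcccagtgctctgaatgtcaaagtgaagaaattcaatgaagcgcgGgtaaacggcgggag
These letters resemble large-subunit ribosomal RNA, as background knowledge. No ribosomal RNA sequence was compared here, and whether reads of ribosomal RNA or of Atp5g3 were placed in these introns was not tested. The authors counted only reads that mapped to 1 place.

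A contrasting site is shown from intron 1 of Camk1d, where the mouse dendrite and mouse soma contigs overlapped over 228 nt at chr2:5489607-5489834 (minus strand). It had no match elsewhere in the genome.
Camk1d intron 1: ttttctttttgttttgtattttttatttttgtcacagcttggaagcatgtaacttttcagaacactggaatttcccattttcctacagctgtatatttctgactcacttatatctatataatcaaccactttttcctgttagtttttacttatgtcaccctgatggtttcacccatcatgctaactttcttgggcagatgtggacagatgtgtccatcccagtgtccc
It was listed for neither BAT cells nor cardiomyocytes, although Camk1d intron 1 itself had 8 contigs in the BAT list and 1 in the cardiomyocyte list at other positions.

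Of the 9 genes, 6 were listed for mouse dendrites, 5 for mouse somas, 7 for BAT cells and 4 for cardiomyocytes. Over all genes seen in any mouse list, 69.0% were in the dendrite list, 47.3% in the soma list, 82.0% in the BAT list and 49.8% in the cardiomyocyte list, so the family's counts lay near these shares. Of the 5 members seen in any rat list, 4 were listed for dendrites and 3 for somas, beside 78.5% and 59.4% of all genes seen in a rat list. Camk2d was the member listed most widely, in 5 lists, and Camkk2 was in 5 as well but with at most 31 reads. Camk2a, Camk2b and Camk1d had no rat contig in either list.

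**Figure D1:**
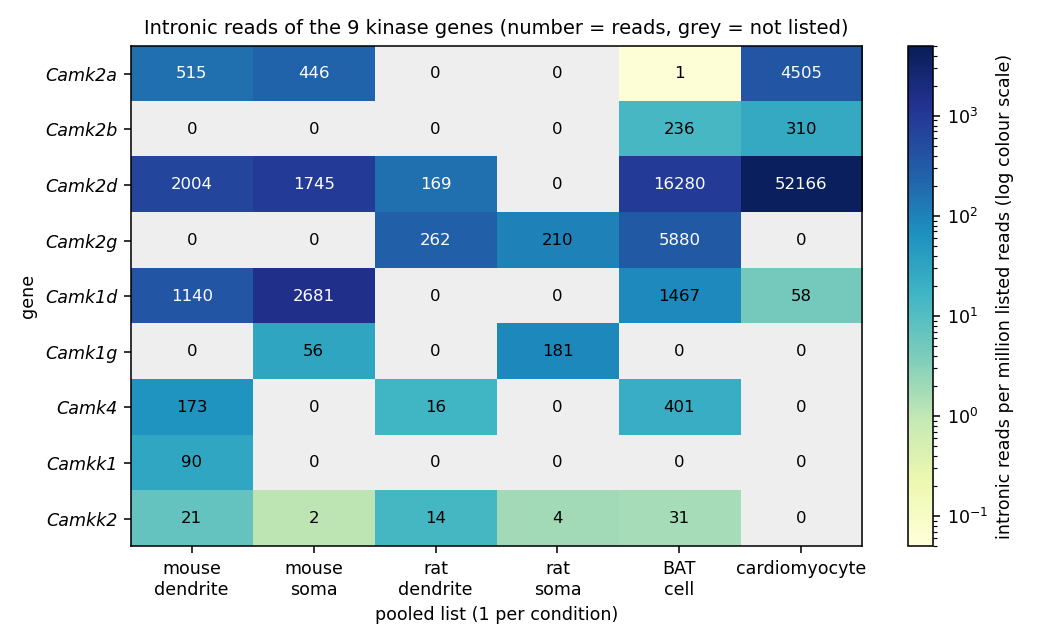
Reads of the 9 kinase genes (rows) in the 6 pooled lists (columns); colour gives RPM on a log scale, the number in a cell the reads themselves, and grey cells genes not listed. Camk2d in cardiomyocytes is the darkest cell with 52166 reads, and Camk1g is filled only in the soma columns.

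As a share of all listed reads, the 9 genes together took 1277 RPM in mouse dendrites (interval 1238 to 1318) and 2657 in mouse somas (2584 to 2732). They took 1360 RPM in BAT cells (1343 to 1378) and 4675 in cardiomyocytes (4637 to 4713). The rat lists gave 458 RPM in dendrites (418 to 501) and 189 in somas (171 to 208). The counting intervals of the 6 shares did not overlap, with cardiomyocytes highest and rat somas lowest. When only introns with a contig of at most 400 nt were counted, rat dendrites were instead lowest, at 35.8 RPM against 366 in rat somas, while cardiomyocytes were at 10258, mouse somas at 3890, mouse dendrites at 2029 and BAT cells at 1550. Reads are given per intron, so an intron with both short and long contigs kept all its reads, and these mouse values still hold reads of longer contigs. The makeup of the family's reads differed between the lists. Camk2d made up 91.5% of them in cardiomyocytes, 67.0% in BAT cells, 50.8% in mouse dendrites and 35.4% in mouse somas. Camk1d was the larger part in mouse somas, with 54.4%.

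Camk2d, the delta subunit of CaMKII, had 2004 reads in mouse dendrites, 1745 in mouse somas, 16280 in BAT cells and 52166 in cardiomyocytes. That is 649 RPM (interval 621 to 678) in dendrites, 940 (897 to 986) in somas, 912 (898 to 926) in BAT cells and 4276 (4239 to 4312) in cardiomyocytes. Among the mouse lists the cardiomyocyte level was more than 4-fold above each of the others, while somas and BAT cells were alike within their counting intervals. When only introns with a contig of at most 400 nt were counted, that likeness was lost and BAT cells were higher. Somas then lost Camk2d introns 8, 13, 14 and 15, while BAT cells kept intron 2 with 7250 reads. Camk2d ranked 17 of 6205 genes by reads in cardiomyocytes, above 99.7% of the listed genes. In rat, Camk2d had 169 reads in 1 contig of 1053 nt for dendrites, in intron 16 of NM_012519, and was not listed for somas.

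The Camk2d reads came from many places along a gene of 248753 nt. The 4 mouse lists held 95 of its contigs, 18 in dendrites, 11 in somas, 35 in BAT cells and 31 in cardiomyocytes, listed under NM_001025439 and NM_023813. Intron 2 of NM_001025439, which is 85499 nt long, led in BAT cells with 7250 reads in 15 contigs and in cardiomyocytes with 16962 reads in 13 contigs. The same intron had 580 reads in 7 contigs in dendrites and 2 reads in somas. In mouse dendrites the leading intron was instead intron 3 of NM_023813 with 996 reads, among them a contig of 2200 nt, and cardiomyocytes had 15784 reads in this intron. In mouse somas the leading Camk2d introns were short ones near the 3′ end, intron 15 of NM_001025439 with 560 reads and intron 14 with 450 reads. Next in BAT cells among the Camk2d introns was intron 12 of NM_023813, with 2513 reads in a contig of 2256 nt. Intron 15 of NM_001025439 had 7838 reads in cardiomyocytes and was not listed for dendrites.

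Some Camk2d contigs shared their ends exactly. In intron 13 of NM_001025439 a contig each of somas, BAT cells and cardiomyocytes began at 126507407, 126507725 and 126508012 and all ended at 126508412, which is 362 nt before the end of the intron. In intron 15 of the same transcript the soma and BAT contigs both ended at 126513181, and a cardiomyocyte contig at 126513238. The largest covered share of any intron was also here, in intron 14, where a cardiomyocyte contig of 2161 nt took 94.3% of an intron of 2291 nt. The dendrite contig of this intron ended at 126509293 and the soma contig began at 126509313, so they did not overlap.

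**Figure D2:**
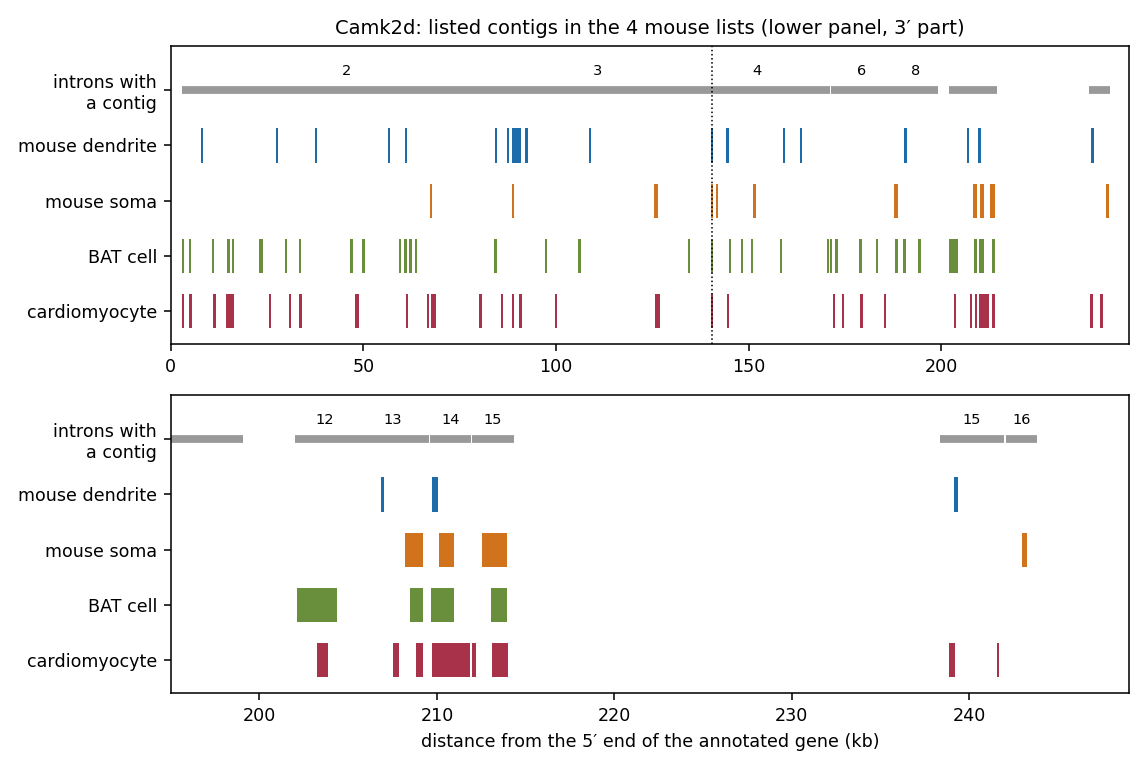
Positions of the Camk2d contigs (bars, 1 row per mouse list) against distance from the 5′ end of the annotated gene in kb; grey bars are the numbered introns with a contig, the lower panel enlarges the 3′ part, and 15 appears for both transcripts. Short contigs are widened to be visible, and the dotted line marks the Camk2d intron 4 site that all 4 lists share.

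Camk2a, the alpha subunit, had 515 reads in mouse dendrites, 446 in mouse somas, 1 in BAT cells and 4505 in cardiomyocytes. In RPM this is 167 (153 to 182), 240 (219 to 264), 0.0560 (0.00142 to 0.312) and 369 (359 to 380), so the BAT list was far below the other mouse lists. Intron 15 of NM_177407 held contigs of dendrites, somas and cardiomyocytes that overlapped over 358 nt, with 184, 446 and 3066 reads. The remaining dendrite reads, 331, were in intron 3 of NM_009792, and cardiomyocytes had 329 reads there and 1110 in intron 1 of the same transcript. The numbering of NM_009792 fitted an annotated transcript with 6 introns that starts inside the gene, as against 17 for NM_177407. From the literature this gene has an inner promoter whose short product, alpha-KAP, is an anchoring protein without the kinase domain, made in muscle, and the reads cannot tell which transcript they came from.

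Camk2b, the beta subunit, was listed for BAT cells with 236 reads (13.2 RPM, 11.6 to 15.01) and for cardiomyocytes with 310 reads (25.4 RPM, 22.7 to 28.4), and for no neuron list. All 8 of its contigs lay in intron 3 of NM_001174054, and all 8 had a near copy at another place that covered at least 80% of the contig. The best copy lay inside Camk2b itself for 3 of them, and for a cardiomyocyte contig of 495 nt it lay on chromosome 12, at 97.8% identity over the whole contig. The gamma subunit gene Camk2g had 5880 reads in BAT cells, 329 RPM (321 to 338), of which 4543 were in a contig of 1285 nt in intron 10 of NM_178597. It was not listed for the other mouse groups. In rat it was the leading member, with 262 reads in dendrites and 210 in somas. Intron 18 of NM_133605 held contigs of both rat lists that overlapped over 226 nt, and the soma list had a further contig with 168 reads in intron 4.

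Camk1d, the delta form of CaMKI, had 1140 reads in mouse dendrites, 2681 in mouse somas, 1467 in BAT cells and 58 in cardiomyocytes. In RPM these are 369 (348 to 391), 1445 (1391 to 1501), 82.1 (78.0 to 86.5) and 4.75 (3.61 to 6.15), and the 4 intervals do not overlap. Most of its reads were in intron 3, the one with the site that resembles ribosomal RNA, with 833, 2158, 959 and 47 reads in the same order. Intron 3 thus gave 73.1% of the Camk1d reads in dendrites and 80.5% in somas, and since the count is kept per intron, the reads of that site alone are not known. Introns 1 and 2, of 148365 and 120504 nt, gave 137 and 106 reads in dendrites, 264 and 259 in somas, 207 and 293 in BAT cells, and 1 and 10 in cardiomyocytes. In intron 4 a dendrite contig of 231 nt ran up to the last base of the intron, and the junction is shown with the final bases of the intron in capitals (chr2:5275812-5275871, minus strand).
Camk1d intron 4 end: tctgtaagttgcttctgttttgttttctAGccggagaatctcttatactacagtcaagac
The intron had 28 reads and was in no other list.

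**Figure D3:**
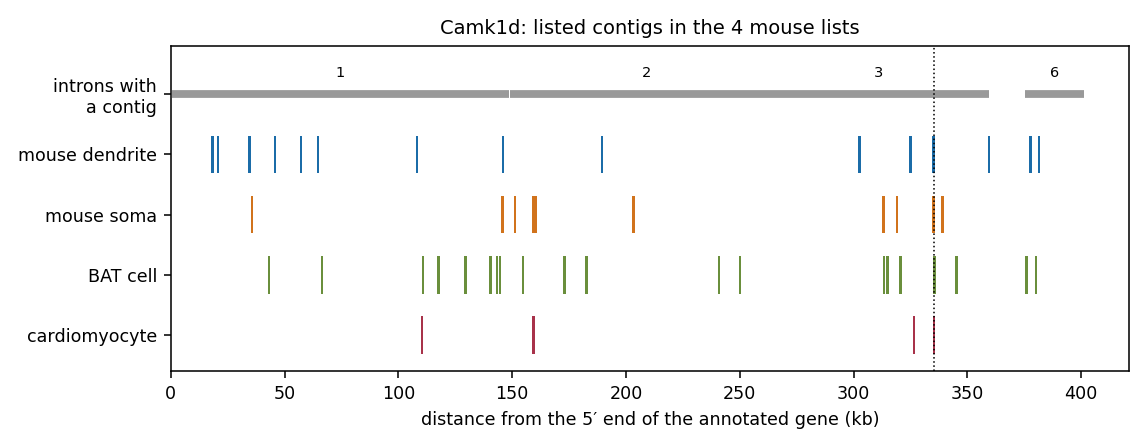
Positions of the Camk1d contigs (bars, 1 row per mouse list) against distance from the 5′ end of the annotated gene in kb; grey bars are the introns with a contig, short contigs are widened, and the dotted line marks the intron 3 site present in all 4 lists. Apart from this site, few bars of different rows stand above each other.

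Camk1g, the gamma form of CaMKI, was listed for somas of both species and for no other group. Mouse somas had 56 reads in 1 contig of 410 nt in intron 4 of NM_144817, or 30.2 RPM (22.8 to 39.2), a contig that overlapped an exon of a further annotated Camk1g transcript. Rat somas had 130 reads in intron 11 and 51 in intron 7 of NM_182842, or 86.4 RPM (74.3 to 99.96) in all. Camk4 showed the other pattern in neurons. It had 173 reads in mouse dendrites over 9 contigs in 5 introns, and 16 in rat dendrites, and was not listed for somas of either species, while BAT cells had 401 reads over 5 introns. Introns 5 and 7 of NM_009793 were listed for both dendrites and BAT cells, with overlapping contigs only in intron 5.

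The CaMK kinases upstream of these enzymes had few reads. Camkk1 had 90 reads in mouse dendrites, all in a contig of 961 nt in intron 10 of NM_018883, and was in no other list. Camkk2 had 21 reads in mouse dendrites, 2 in mouse somas, 14 in rat dendrites, 4 in rat somas and 31 in BAT cells. The mouse reads lay in different introns for each list, whereas the rat contigs both lay in intron 7 of NM_031338 and overlapped over 236 nt.

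Dendrites and somas of the same species were then compared gene by gene. A gene with at least 32 reads in either list was called where its RPM differed at least 4-fold, with a missing side set at 3 reads. In mouse, of the 6 members with enough reads, Camk4 was at least 34.7-fold higher in dendrites and Camkk1 at least 18.0-fold higher, while Camk1g was at least 31.1-fold lower. Of all genes compared, 53.2% were at least 4-fold higher in dendrites and 22.8% at least 4-fold lower, so 2 of 6 and 1 of 6 members lay below or near the background. Camk2a was 1.44-fold lower in dendrites (interval 1.27 to 1.64), Camk2d 1.45-fold lower (1.36 to 1.55) and Camk1d 3.91-fold lower (3.65 to 4.20), just inside the limit. Camkk2, with 21 reads against 2, was 6.31-fold higher (1.54 to 55.5) but had too few reads for a call. The Camkk1 reads lay in 1 contig of 961 nt and the mouse Camk1g reads in 1 of 410 nt, so a limit of 400 nt removed both genes and ended both calls. Under this limit, counted per intron, somas lost Camk2d introns 8, 13, 14 and 15, with 63, 348, 450 and 560 reads. Dendrites kept every Camk2d intron, so Camk2d turned to higher in dendrites. Camk1d then passed 4-fold lower, and Camk2a stayed lower. In rat, 3 members had enough reads. Camk2d was at least 117-fold higher in dendrites, Camk1g at least 29.02-fold lower and Camk2g 2.59-fold higher (2.15 to 3.12), where the background was 48.1% higher and 34.2% lower. The rat dendrite reads of Camk2d and Camk2g each lay in 1 contig, of 1053 and 564 nt. With contigs of at most 400 nt neither gene was left in rat dendrites, which ended the Camk2d call. Camk2g then stayed only in rat somas, with 42 reads in a contig of 258 nt, so its direction turned.

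**Figure D4:**
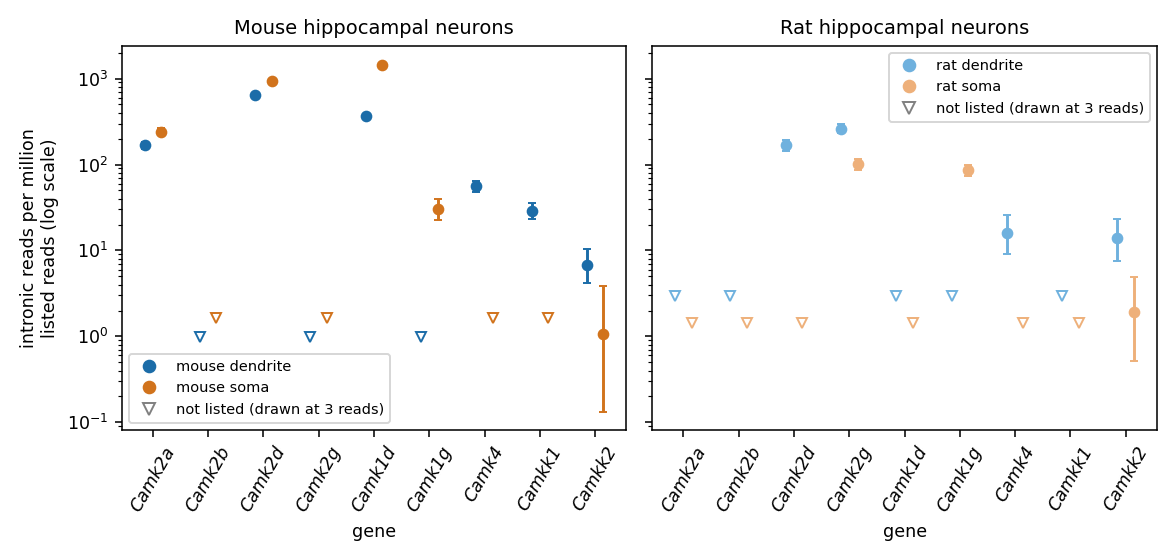
RPM (log axis) of each kinase gene in dendrites and somas of mouse (left) and rat (right) neurons; bars are exact Poisson 95% intervals for counting error only, and open triangles mark genes not listed, drawn at 3 reads. In both species Camk1g has a point only for somas and Camk4 only for dendrites.

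For the 9 genes as a sum, the share in mouse dendrites was 0.481 of that in mouse somas (interval 0.461 to 0.501), and in rat dendrites it was 2.43 times that in rat somas (2.12 to 2.78). The mouse value rose to 0.674 (0.640 to 0.709) without Camk1d intron 3, and to 0.649 without this intron and Camk2d intron 4. The rat value rested on contigs longer than 400 nt and turned to 0.0980 (0.0527 to 0.168) when these were left out, which was possible because each rat kinase intron held 1 contig. With sequenced reads in place of listed reads as the scale, the ratios were 0.669 in mouse and 1.78 in rat.

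The non-neuronal lists were set beside mouse somas in the same way, so these values share the soma list with those above. In BAT cells Camk2g was at least 204-fold higher than in somas, Camk4 at least 13.9-fold and Camk2b at least 8.17-fold, where 43.4% of all genes were called higher. Camk1d was 17.6-fold lower (16.5 to 18.8), or 9.92-fold lower (8.76 to 11.2) without its intron 3, and Camk1g at least 180-fold lower, where 21.8% of all genes were called lower. The Camk1g calls in BAT cells and cardiomyocytes rest on the soma contig of 410 nt and ended with the 400 nt limit, which left Camk1g in no mouse list. Camk2a, with 1 BAT read, was lower too, with an interval of 767 to 169928-fold. In cardiomyocytes Camk2d was 4.55-fold higher than in somas (4.33 to 4.77) and Camk2b at least 15.7-fold, beside 37.5% of all genes. With the 400 nt limit the Camk2d difference widened. Somas lost Camk2d introns 8, 13, 14 and 15, and cardiomyocytes only introns 12 and 14. Camk1d was 304-fold lower (234 to 401) and Camk1g at least 123-fold lower, beside 36.6%, and Camk2a was 1.54-fold higher (1.39 to 1.70). With the 400 nt limit cardiomyocytes kept 1110 of 4505 Camk2a reads and somas all 446, and Camk2a turned to lower than in somas.

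The 4 mouse lists held 42 different introns of the 9 genes, of which 22 were in 1 list, 9 in 2, 3 in 3 and 8 in all 4. Being in 2 or more lists applied to 47.6% of the kinase introns and 39.5% of the 46599 introns of all genes, and being in all 4 lists to 19.0% and 3.70%. The 8 introns were introns 1, 2 and 3 of Camk1d and 5 introns of Camk2d, among them the longest of the set. Dendrites and somas shared 10 introns, 47.6% of the dendrite introns and 71.4% of the soma introns. Of the 20 introns in 2 or more lists, 17 had contigs of different lists that overlapped, and Camk1d intron 6, Camk2d intron 5 and Camk4 intron 7 had none. Over all 42 introns, contigs of 2 or more lists overlapped at 30 of 143 separate sites. BAT cells and cardiomyocytes overlapped at 15 sites, the most of any pair, and dendrites and somas at 5, the fewest. The lists held unlike numbers of kinase contigs, 73 in BAT cells, 43 in cardiomyocytes, 47 in dendrites and 24 in somas. Overlaps were not counted over all genes, so the order of these pairs is not read as likeness between groups.

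All 187 mouse contigs lay inside the numbered intron of an annotated transcript in GENCODE. The 42 introns ranged from 488 to 148365 nt with a median of 4434 nt, beside 2228 nt for all 156 introns of the matched transcripts. In 48 of 81 pairs of list and intron the contigs covered less than 10% of the intron. The middle of the contig fell in the first part of the intron, when it was cut into 3 equal parts, for 74 contigs, in the second for 57 and in the last for 56. Contigs reached the exact 5′ edge of the intron in 2 cases, in BAT cells, and the 3′ edge in 1. An annotated exon of another transcript of the same gene overlapped 11 of the 187 contigs, 10 of them in Camk2d. GENCODE labels the transcripts at those 10 as retained introns, and this overlap was not counted over all mouse contigs. The median GC content was 39.6% for the kinase contigs and 41.1% for all mouse contigs.

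A near copy elsewhere in the genome was found for 47 of the 187 contigs (25.1%), among them 17 of 49 for Camk1d, 11 of 95 for Camk2d, 3 of 8 for Camk2a, 2 of 15 for Camk4, 3 of 5 for Camk2g, 3 of 5 for Camkk2 and 8 of 8 for Camk2b. This share was not computed over all mouse contigs. Of the 47 contigs, 33 had near copies at 10 or more places. The best copy covered at least 80% of the contig for 9 contigs of Camk1d, 4 of Camk2d and 8 of Camk2b, and for no contig of the other genes. A near match to a spliced coding transcript of another gene was found for 13.4% of the kinase contigs and 21.0% of all mouse contigs. Amplification was primed with poly(T), so runs of adenines next to contigs were counted too. A run of at least 10 adenines within 300 nt downstream, on the strand of the gene, was found for 16 of 187 kinase contigs (8.56%) and for 9.40% of all mouse contigs. By list the kinase share was 12.8% in dendrites, 16.7% in somas, 6.85% in BAT cells and 2.33% in cardiomyocytes, beside 8.11%, 18.6%, 7.36% and 9.53% of all contigs. When runs inside the contig were counted as well, the order turned, with 43 of 187 kinase contigs (23.0%) beside 18.6% of all. That count gave 41.7% beside 28.6% in somas, 20.5% beside 15.02% in BAT cells, 17.0% beside 16.6% in dendrites and 23.3% beside 23.4% in cardiomyocytes. Examples from 3 lists are shown with the adenines in capitals, each with 30 bases before the run and 10 after it.
Dendrites, Camk2d intron 3 (chr3:126391669-126391732, plus strand): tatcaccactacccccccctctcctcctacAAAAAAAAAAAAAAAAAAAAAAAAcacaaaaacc
Somas, Camk1d intron 2 (chr2:5483886-5483941, minus strand): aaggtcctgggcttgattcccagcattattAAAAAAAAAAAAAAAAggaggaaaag
BAT cells, Camk2g intron 13 (chr14:21573395-21573449, minus strand): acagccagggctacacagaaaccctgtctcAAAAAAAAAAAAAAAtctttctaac
The runs began 15, 3 and 1 nt past the contig ends and were 24, 16 and 15 adenines long.

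**Figure D5:**
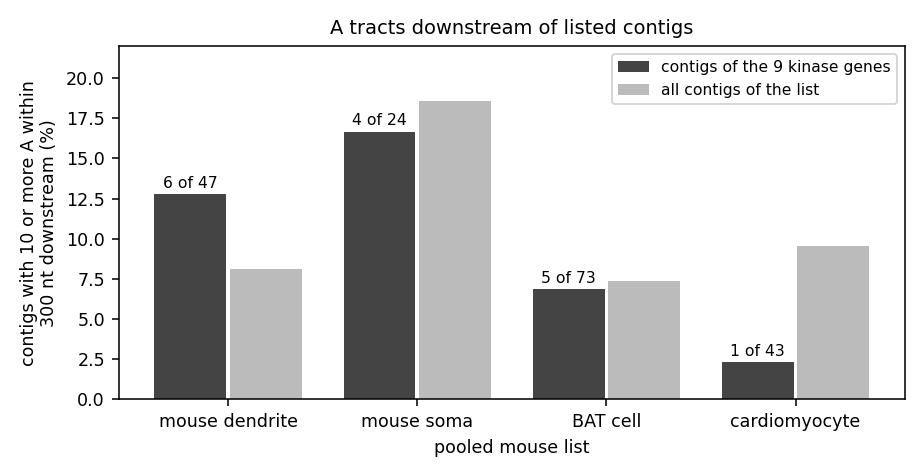
Share of contigs (bars from 0, in percent) with 10 or more adenines within 300 nt downstream on the gene strand, for the kinase contigs (dark, with counts) and all contigs of each mouse list (light). The dark bar is above the light one in dendrites and below it in the other 3 lists.

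Of 30 further genes of the pathway (calmodulins, calmodulin-binding regulators, related kinases, calcineurin subunits and kinase targets), 19 were listed for mouse dendrites, 18 for mouse somas, 9 for rat dendrites, 11 for rat somas, 21 for BAT cells and 12 for cardiomyocytes. Over all genes seen in any list of the species these shares were 69.0%, 47.3%, 78.5%, 59.4%, 82.0% and 49.8% in the same order. The counts are not read against them, since 6 of the 30 genes were in no list. Creb1, the transcription factor that CaMKIV phosphorylates, had 34770 reads in BAT cells and 70 in mouse somas and was not listed elsewhere. Ppp3ca, a catalytic subunit of the calmodulin-activated phosphatase calcineurin, was in all 6 lists, with 406 RPM in mouse dendrites and 620 in mouse somas. Gria1, an AMPA receptor subunit that CaMKII phosphorylates, had 63.2 RPM in mouse dendrites and 4101 in mouse somas. Cask, a scaffold with a CaMK-like domain, had 1050 RPM in rat dendrites and 11.9 in rat somas, but 194 and 600 in the mouse lists. Dclk2, a kinase with a doublecortin domain, had 245 RPM in mouse dendrites and 2436 in mouse somas.

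Among 854 genes listed in all 6 lists, those whose levels lay nearest to the summed kinase levels were Rock1, Pitpna and Large, at distances of 2.72, 2.82 and 3.17 on the log2 scale of RPM plus 1. Rock1 had 901 RPM in mouse dendrites, 1878 in mouse somas and 2244 in cardiomyocytes. These are the closest of many genes over 6 points, and Pitpna ran opposite to the kinases between dendrites and somas in both species, with 2554 RPM and 1736 RPM in mouse and 101 RPM and 271 RPM in rat.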

How the data were processed

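The authors amplified poly(A)-primed RNA in repeated aRNA rounds, sequenced it, kept reads that Bowtie mapped to 1 place (mm9, rn4), removed intronic regions with predicted genes, poly(A) sites or noncoding RNAs, and joined reads up to 500 nt apart into contigs. The deposited lists give whole-number read counts per intron, pooled by the authors over each condition's libraries, and the protocol kept no strand, so antisense RNA cannot be told apart. Here contigs were taken by gene symbol and each transcript and intron counted once. Levels are reads per 1000000 listed reads (RPM), with Wilson (shares), exact Poisson (genes) and exact conditional binomial (ratios) 95% intervals for counting error only. Calls needed 32 reads in either list and a 4-fold difference, with a missing side set at 3 reads per list. With 1 pool per condition no test was made. Sequences and annotation came from the NCBIM37 genome and GENCODE, and near copies from BLAST 2.17.0, a step chosen after seeing the data. The genes named were the 9 members, the 3 introns with most reads per list, the 5 pathway genes with most reads and the 3 genes nearest to the summed family level. The members and lists were chosen with earlier results of these data known. Tools were Python 3.11.15, pandas 2.3.3, numpy 2.4.6, scipy 1.17.1, matplotlib 3.10.9 and bedtools 2.31.1. Only the search for downstream adenine runs and the ratio intervals were tested on simulated data. Alternatives were only introns with a contig up to 400 nt, a minimum of 32 reads and overlapping contigs of several transcripts counted once. Further ones included sequenced reads as scale, the leading intron left out and longer adenine runs.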

Additional observations from a re-analysis of the deposited data

Results flagged for a closer look

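The summed share of the 9 kinase genes was lower in dendrites than in somas in mouse, at a ratio of 0.481, and higher in rat, at 2.43. The opposite directions in the 2 species drew attention to this pair. When only introns with a contig of at most 400 nt were counted, the ratio was 0.0980 in rat and 0.522 in mouse. The mouse value still holds reads of longer contigs in the same introns, so the pair is not a like comparison. The difference between the species was not tested, since each condition is 1 pool.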

How the results depend on the processing

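Of 48 alternative values, 25 stayed close to the reported ones, 22 moved and 1 changed direction. Among those that stayed close, counting overlapping contigs of several transcripts once left the family share unchanged in every list. A minimum of 32 reads per intron took few reads away, so the tally holds alternatives that could hardly move. Apart from Camk1d, the tally covers no single gene's level. Counting introns with a contig of at most 400 nt, whose reads can include longer contigs of the same intron in mouse, the family took 2029 RPM in mouse dendrites, 3890 in mouse somas, 35.8 in rat dendrites, 366 in rat somas, 1550 in BAT cells and 10258 in cardiomyocytes, the mouse dendrite to soma ratio was 0.522 and the rat ratio turned to 0.0980. Rat dendrites then held 1 member gene, and 2 when introns needed 32 reads. Scaled by sequenced reads the ratios were 0.669 in mouse and 1.78 in rat, and without the leading intron 0.639 and 1.82. In alternatives chosen after seeing the data, leaving out Camk1d intron 3 and Camk2d intron 4 gave 900.0, 1386, 1289 and 4534 RPM in mouse dendrites, mouse somas, BAT cells and cardiomyocytes and a mouse ratio of 0.649, and leaving out Camk1d intron 3 alone gave 0.674. Without that intron Camk1d was 2.84-fold lower in mouse dendrites, 9.92-fold in BAT cells and 313-fold in cardiomyocytes than in mouse somas. Runs of 15 adenines followed 7 contigs in place of 16. The cause of these shifts was not tested beyond what each left out. No replicate could be left out, since each list is a pool. No paired analysis was possible because the lists carry no replicate numbers. Read depth limits Camkk2 and Camk4 in rat most, with at most 16 reads.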
